A study of Homo sapiens with 4 samples.

Results

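Mitochondrial ribosomal protein genes are the nuclear genes with symbols in MRPL or MRPS. They were taken as every row whose symbol was MRPL or MRPS, digits and at most one letter A, B or C, which left out pseudogenes and read-through symbols. The rule found 77 genes of 60487 rows, 48 named MRPL for the large subunit and 29 named MRPS for the small subunit. In the groups by subunit below, MRPS18A and MRPS30 were counted with the large subunit and MRPS36 with neither. RNA came from HCC1937, a breast cancer cell line without functional BRCA1, the DNA repair protein. The labels give an empty-vector line (genotype BRCA1 -/-) and a line with wild-type BRCA1 added back (wtBRCA1), each under the solvent DMSO or under OTX-015. OTX-015, also called birabresib, is an inhibitor of BET bromodomain proteins, chromatin readers that bind acetylated histones and support transcription. Dose, time and the number of clones behind each line are not given in the sources used here. Poly(A)-selected RNA of 1 library per group, 4 libraries in all, was measured as FPKM, fragments scaled to transcript length and to the mapped fragments of the library.

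The mitochondrial ribosome translates the few messages made from mitochondrial DNA, all of which encode subunits of the respiratory chain and ATP synthase. Its RNA is made inside the mitochondrion, but its proteins are encoded in the nucleus, made in the cytosol and imported. Some are counterparts of bacterial ribosomal proteins, and others are particular to mitochondria, so the genes below were read by subunit and by that origin.

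The BRCA1 transcript was at 37.2 FPKM (DMSO) and 40.8 (OTX-015) in the vector line and at 171 (DMSO) and 2712 (OTX-015) in the wtBRCA1 line, so both wtBRCA1 libraries were above both vector libraries. Epithelial markers summed to between 4790 and 24729 FPKM over the libraries, and 4 leukocyte markers to at most 0.663. Endothelial, fibroblast and melanocyte markers summed to at most 7.03, 9.78 and 9.20 FPKM. Most of the epithelial sum was KRT8, at 3185 to 23339 FPKM. KRT5 was at 23.2 to 980 and KRT14 at 0.438 to 8.53 FPKM. The 10 highest genes held 17.4% and 15.3% of all FPKM under DMSO (vector, wtBRCA1) and 39.2% and 33.8% under OTX-015. The files hold no counts, so the depth of each library and the counting error of a value are unknown. In bulk RNA, fewer cells that express a gene and less of its RNA per cell cannot be told apart.

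All 77 members passed the filter of 1 FPKM in at least 1 library, and 76 reached 1 FPKM in every library. At 10 FPKM in every library there were 60. Since FPKM is per length, levels were set side by side between genes, though shared locus ranges and pseudogenes make some of them uncertain. MRPL52, a mitochondria-specific protein of the large subunit, had the highest mean level, with 1152 FPKM in vector DMSO, 894 in vector OTX-015, 588 in wtBRCA1 DMSO and 489 in wtBRCA1 OTX-015. It was followed by MRPL21, MRPL51, MRPL13, MRPL47 and MRPL20, with mean levels of 289, 243, 229, 190 and 173 FPKM. The lowest mean levels were those of MRPL23, MRPL44, MRPL46, MRPS36, MRPL57 and MRPS31, from 2.29 to 6.71 FPKM. MRPL23, a protein near the exit of the large subunit's tunnel, was listed at 0 in 3 libraries and at 9.15 FPKM in wtBRCA1 DMSO, so it passed the filter through that library alone. Whether those zeros were failed estimates was not tested. Across the 77 genes, the length of the union of a member's exons and its mean log2 level had Pearson r 0.08 and Spearman rho 0.03, a description over genes of the same 4 libraries.

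Under OTX-015 the sum of the 77 members was lower in both lines. In vector cells it was 7015 FPKM under DMSO and 4506 under OTX-015, a change of -35.8%, and in wtBRCA1 cells 5926 and 4464, a change of -24.7%. The FPKM summed over all genes was higher under OTX-015, and the share of it held by the members went from 0.772% to 0.301% with empty vector and, with wtBRCA1, from 0.616% to 0.302%. The median member stood at 56.5, 41.4, 46.6 and 37.0 FPKM in vector DMSO, vector OTX-015, wtBRCA1 DMSO and wtBRCA1 OTX-015. The highest sum and the highest median were both in the vector DMSO library. Without MRPL52, the ratio of the OTX-015 sum to the DMSO sum was 0.616 in vector cells and 0.745 in wtBRCA1 cells.

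A model with terms for line and treatment was fitted with limma to log2(FPKM + 1) over 18297 genes. Because each group had 1 library, its residual is the difference between the responses of the 2 lines. limma pools this residual with that of other genes at a like mean level, which gives 9.66 degrees of freedom where a gene alone has 1. A p-value therefore sets the change common to both lines against a largely pooled difference between lines, not against the spread of repeated cultures. A gene can pass though its 2 responses differ. By this test 12 of the 77 members fell under OTX-015 at a Benjamini-Hochberg adjusted p under 0.05, where 2.67% of all genes fell. No member rose, where 3.66% of all genes did. At an unadjusted limma p under 0.05 the counts were 26 lower, where 10.2% of all genes were, and 4 higher, where 12.6% were. The median effect over both lines was -0.50 on the log2(FPKM + 1) scale for the members and 0.03 for all genes, and 59 of 77 effects were below 0. The count depended on the fit. It was 0 without a filter on low values, where 25 of 24292 genes fell, 0 without the mean-variance trend, where 1 of 18297 fell, and 14 among protein-coding genes only, where 4.28% fell. With any one of the 4 libraries left out together with the other factor it was 0, but so was the count over all 18297 genes, so this says nothing about the members in particular.

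The 12 members that fell were MRPL39, MRPS24, MRPL53, MRPL3, MRPS5, MRPS15, MRPL15, MRPL22, MRPL24, MRPL11, MRPL28 and MRPL13, with adjusted p from 0.0083 to 0.0404 (limma). Of these, 9 were named for the large subunit and 3 for the small one. They lay on 9 chromosomes. The calls were not equally stable. Of 10 alternative fits that kept both terms, MRPL39 and MRPS15 passed in 8, and MRPL11, MRPL15, MRPL53 and MRPS5 in 7. MRPL24 and MRPL3 passed in 5, MRPL13 and MRPL28 in 3, and MRPL22 and MRPS24 in 2. Each of the 12 had both OTX-015 values below both DMSO values. The 12 were picked by a fall common to these same 4 libraries, so this and the ratios follow in large part from that choice. The ratio of DMSO to OTX-015 ran from 2.41 to 9.61 with empty vector and, with wtBRCA1, from 1.71 to 4.32, and it reached 2 in both lines on the log2(FPKM + 1) scale for 9 of the 12.

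**Figure D1:**
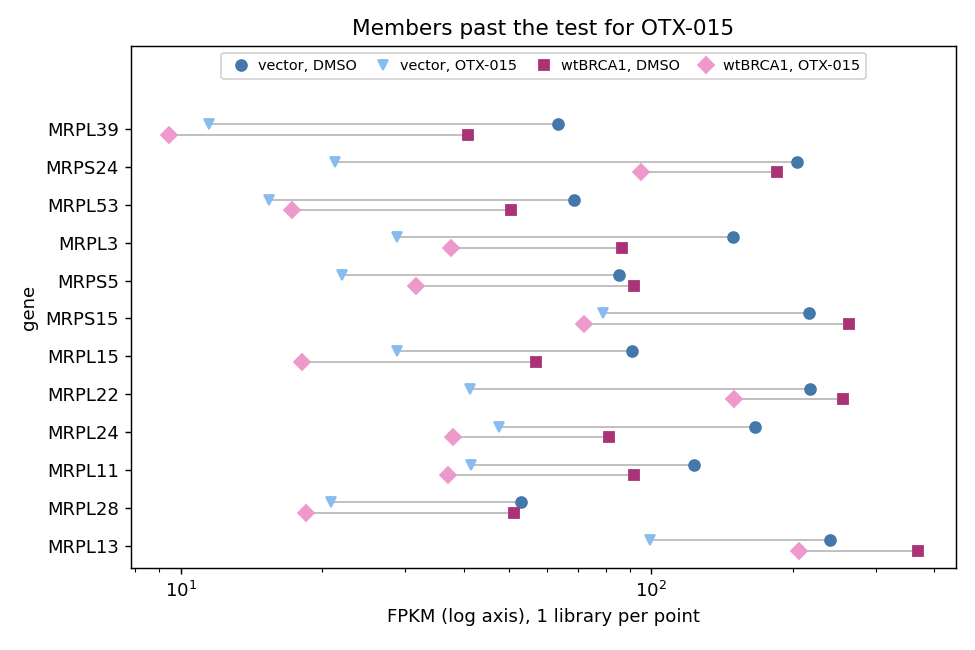
FPKM (log axis) of the 12 members past the limma test for OTX-015, ordered by effect; each point is 1 library and a grey line joins DMSO to OTX-015 within a line of cells. Both OTX-015 points lie left of both DMSO points for every gene, and the widest gap is that of MRPS24 in vector cells, from 204 to 21.3 FPKM.

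Among large-subunit proteins with a bacterial counterpart, 7 of 30 fell and none rose, against 2.67% and 3.66% of all genes. The median difference was -0.74 in vector cells and -0.36 in wtBRCA1 cells. MRPL3, which lies close to the site of peptide bond formation, is encoded at chr3:131462212-131502983 on the minus strand (GENCODE 29, GRCh38). It was at 149.5 FPKM in vector DMSO, 28.9 in vector OTX-015, 86.9 in wtBRCA1 DMSO and 37.6 in wtBRCA1 OTX-015. The effect over both lines was -1.76 ± 0.35 (SE), with a limma adjusted p of 0.0215. The listed pseudogene MRPL3P1 was at 12.6, 1.68, 9.58 and 1.61 FPKM in the same order, lower under OTX-015 in both lines as the gene was. Reads of a gene and its pseudogene may have been split between them by the counting.

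MRPL22, a protein that lines the exit tunnel, is at chr5:154941070-154969411 on the plus strand. It went from 217 to 41.2 FPKM with empty vector and, with wtBRCA1, from 256 to 150.2, an effect of -1.57 ± 0.37 (SE; limma adjusted p 0.0371). The vector OTX-015 library was thus well below the other 3. Here and below, each pair of values is DMSO then OTX-015, and the vector line comes first. MRPL24 went from 166 to 47.5 FPKM with empty vector and, with wtBRCA1, from 81.5 to 37.9 (adjusted p 0.0278, limma). MRPL11, part of the base of the stalk that receives translation factors, went from 123 to 41.5 and from 92.0 to 37.0 FPKM (adjusted p 0.0248, limma). In MRPL11 the 4 values differed more by treatment than by line. The files give MRPL11 and DPP3, a separate gene beside it in GENCODE 29, the same locus range. DPP3 was at 82.3, 281, 135 and 412 FPKM in the order given for MRPL3, higher where MRPL11 was lower. BBS1, PELI3 and CTD-3074O7.5, with the same range, were at lower levels than DPP3 and also higher under OTX-015 in both lines. The part of these genes in the MRPL11 values was not tested.

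MRPL28 went from 52.8 to 20.9 FPKM with empty vector and, with wtBRCA1, from 51.0 to 18.4 (adjusted p 0.0370, limma). MRPL15 on chromosome 8 went from 90.9 to 28.8 and from 56.8 to 18.1 FPKM, close to the same ratio in both lines (adjusted p 0.0199, limma). MRPL13, also on chromosome 8, had the smallest effect of the 12, -1.05 ± 0.25 (SE; limma adjusted p 0.0404), from 240.3 to 99.6 and from 369 to 206 FPKM. The files give MTBP the same locus range as MRPL13, and it was at 11.5, 4.99, 28.8 and 12.3 FPKM in vector DMSO, vector OTX-015, wtBRCA1 DMSO and wtBRCA1 OTX-015, also lower under OTX-015 in both lines. Its part in the MRPL13 values was not tested.

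The stalk proteins were not past the test. MRPL12, which forms the mobile stalk, was at 109 and 68.1 FPKM with empty vector and, with wtBRCA1, at 91.5 and 83.1 under DMSO and OTX-015 (adjusted p 0.466, limma). MRPL10, which anchors it, was at 13.9 and 18.0 with empty vector and, with wtBRCA1, at 11.2 and 13.9 (adjusted p 0.632, limma). In both lines MRPL12 was lower and MRPL10 higher under OTX-015.

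Among mitochondria-specific proteins of the large subunit, 2 of 20 fell and none rose, against 2.67% and 3.66% of all genes. The median difference was -0.57 in vector cells and -0.26 in wtBRCA1 cells. MRPL39, at chr21:25585656-25607517 on the minus strand, had the largest effect of all members, -2.19 ± 0.33 (SE), with a limma adjusted p of 0.0083. It was at 63.5 FPKM in vector DMSO, 11.5 in vector OTX-015, 40.8 in wtBRCA1 DMSO and 9.44 in wtBRCA1 OTX-015. The 2 OTX-015 values were close to each other and far below both DMSO values. MRPL53, at chr2:74471958-74473322 on the minus strand, went from 68.4 to 15.4 FPKM with empty vector and, with wtBRCA1, from 50.4 to 17.2, an effect of -1.79 ± 0.33 (SE; limma adjusted p 0.0178). Its pseudogene MRPL53P1 was listed at 0 in both vector libraries and at 2.07 and 3.20 FPKM in the wtBRCA1 libraries.

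Among small-subunit proteins with a bacterial counterpart, 3 of 15 fell and none rose, against 2.67% and 3.66% of all genes. The median difference was -0.51 in vector cells and -0.70 in wtBRCA1 cells. MRPS15 is at chr1:36455718-36464437 on the minus strand. It went from 217 to 78.9 FPKM with empty vector and, with wtBRCA1, from 263 to 72.0, an effect of -1.65 ± 0.27 (SE; limma adjusted p 0.0112). The 2 treatments were farther apart in wtBRCA1 cells, which among the 12 was so only for MRPS15 and MRPL28. MRPS5, a protein of the path by which messenger RNA enters, at chr2:95087207-95149434 on the minus strand, went from 85.3 to 22.1 and from 92.0 to 31.6 FPKM (effect -1.71 ± 0.31 SE; limma adjusted p 0.0164).

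MRPS24, the counterpart of bacterial protein uS3, is at chr7:43866558-43869893 on the minus strand. It was at 204 FPKM in vector DMSO, 21.3 in vector OTX-015, 185 in wtBRCA1 DMSO and 95.1 in wtBRCA1 OTX-015. The lines were alike under DMSO and apart under OTX-015, and the effect over both was -2.08 ± 0.46 (SE; limma adjusted p 0.0290). The files give URGCP, which lies beside MRPS24 and does not overlap it in GENCODE 29, the same locus range, and it was at 10.1, 5.24, 14.3 and 13.2 FPKM in the same order. Its part in the MRPS24 values was not tested.

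Among mitochondria-specific proteins of the small subunit, 0 of 11 fell and 0 rose by limma at an adjusted p under 0.05, and at an unadjusted p under 0.05 the counts were 4 lower and 1 higher, against 10.2% and 12.6% of all genes. The median difference was -0.35 in vector cells and -0.22 in wtBRCA1 cells. MRPS28, MRPS18B and, among those with a bacterial counterpart, MRPS10 were the next members outside the threshold, with limma adjusted p of 0.0568, 0.0612 and 0.072. MRPS18B went from 146 to 64.5 FPKM with empty vector and, with wtBRCA1, from 115 to 61.0. It is one of 3 paralogs. MRPS18A, which sits in the large subunit, was at 66.1 and 60.9 with empty vector and, with wtBRCA1, at 71.7 and 53.6, and MRPS18C was at 56.3 and 53.0 and at 71.7 and 43.7. The adjusted p of these last 2 was 0.647 and 0.507 (limma), and all 3 paralogs were lower under OTX-015 in both lines.

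**Figure D2:**
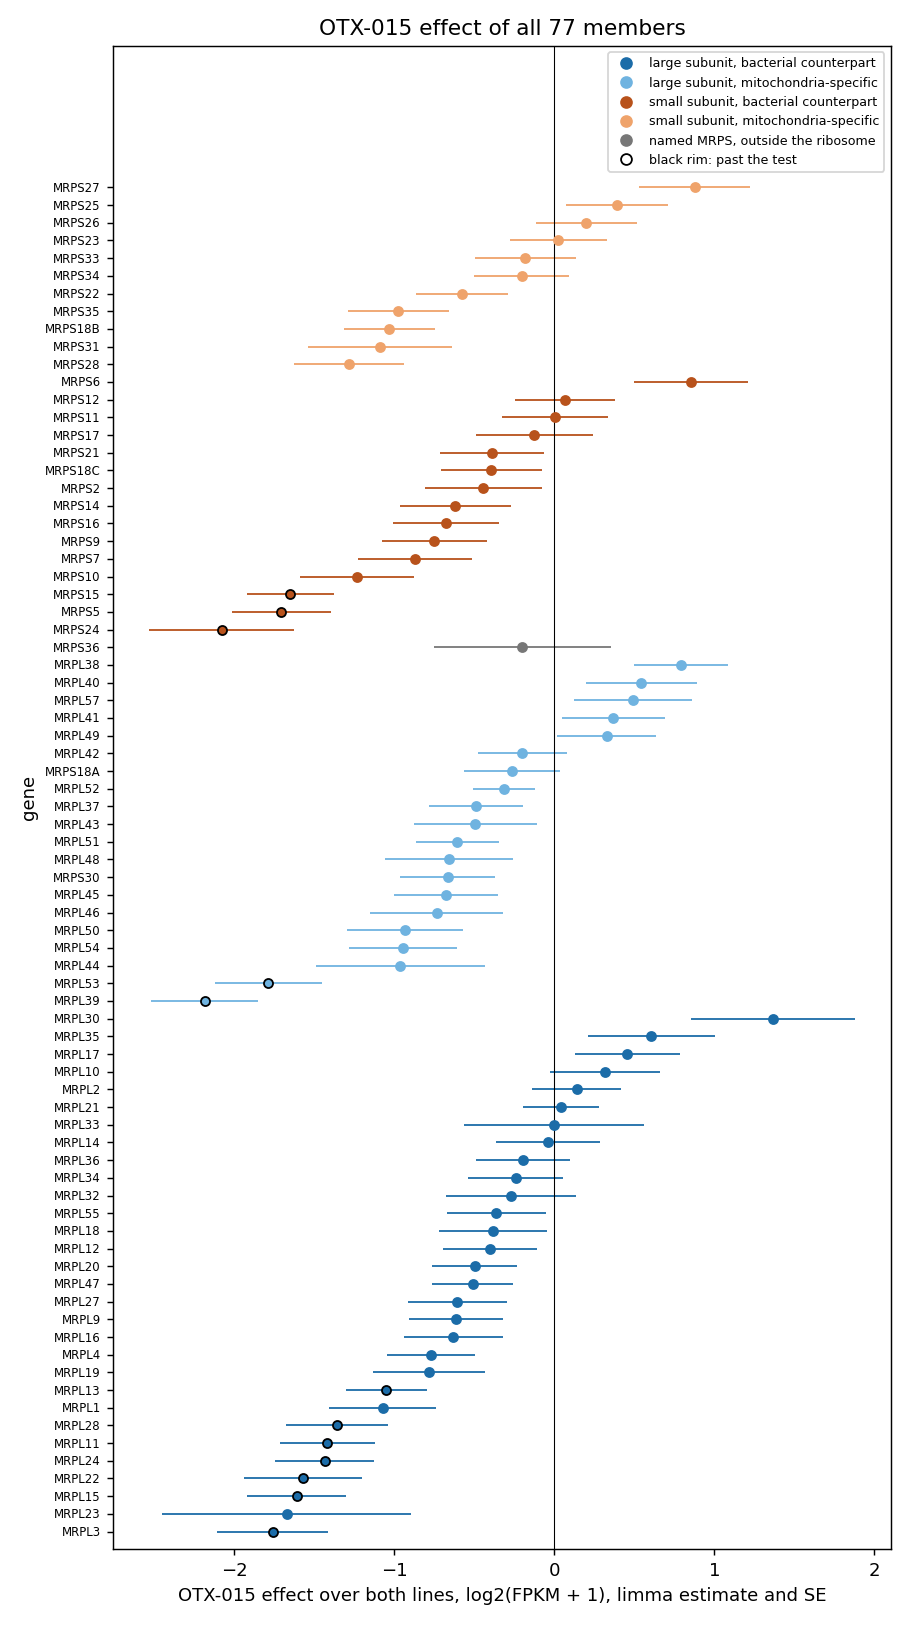
Limma estimate (point) and SE (bar) of the OTX-015 effect over both lines on the log2(FPKM + 1) scale for all 77 members, coloured by subunit and origin; a black rim marks the 12 past the test. Effects lie below 0 for 59 members, from -2.19 in MRPL39 to 1.37 in MRPL30.

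The members with the highest effects did not pass the test. MRPL30, a protein of the large subunit, was at 14.5 FPKM in vector DMSO, 91.6 in vector OTX-015, 10.6 in wtBRCA1 DMSO and 11.9 in wtBRCA1 OTX-015. The limma estimate over both lines was 1.37 ± 0.51 (SE; adjusted p 0.148), and the vector OTX-015 library alone stood apart. RP11-38C17.1, to which the files give the same locus range, was at 42.3, 1.78, 10.8 and 25.9 FPKM in the same order, lowest where MRPL30 was highest. Of the other genes with that range, TXNDC9 and MITD1 were also lowest in vector OTX-015, while EIF5B and REV1 were highest there. Their part in the MRPL30 values was not tested. MRPS27 had an effect of 0.88, MRPS6 of 0.86 and MRPL38 of 0.79, with both OTX-015 values above both DMSO values in each.

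Without a model, 35 of the 77 members (45.5%) had both OTX-015 values below both DMSO values, against 18.9% of all genes. Both OTX-015 values were above both DMSO values for 5 members, against 21.1% of all genes. The 5 were MRPL57, MRPS27, MRPS6, MRPL49 and MRPL38. The 23 members with both values below that were not past the test had effects from -1.28 to -0.18 and limma adjusted p from 0.0568 to 0.766.

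The files give each gene a locus range, which can span several genes. In 42 members no other gene above 10 FPKM in a library had the same range, and 9 of them fell. Their median difference was -0.77 in vector cells and -0.27 in wtBRCA1 cells. In the 35 members with such a neighbour 3 fell, with medians of -0.60 and -0.35. Of the 69 members without a listed pseudogene at 1 FPKM, 10 fell. Over all genes, 2.67% fell. Over the 77 genes, which share libraries, the effect had r -0.03 and rho -0.06 with the mean log2 level, and r 0.11 and rho 0.08 with exon length.

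Within vector cells the median member differed by -0.67 on the log2(FPKM + 1) scale between OTX-015 and DMSO, and the median of all genes by 0.00. Lower by at least 2-fold were 25 members, against 12.7% of all genes, and higher by 2-fold were 2, against 13% of all genes. Within wtBRCA1 cells the median member differed by -0.29 and the median of all genes by 0.00. There 13 members were lower by 2-fold, against 13.4% of all genes, and 4 were higher, against 13%. These pairs are single libraries and carry no test. As shares of the members the 2-fold lower counts were 32.5% in vector cells and 16.9% in wtBRCA1 cells, the latter near the share of all genes.

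**Figure D3:**
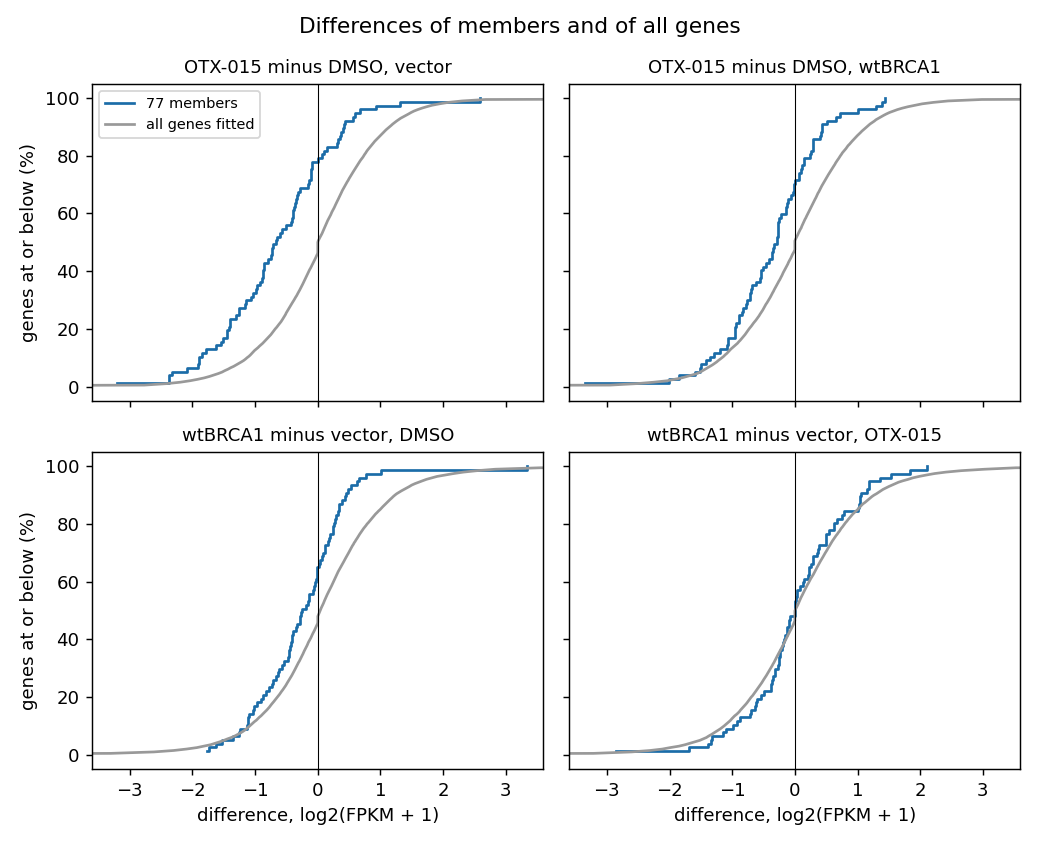
Cumulative share of genes (%) against the difference on the log2(FPKM + 1) scale for the 77 members (blue steps) and all 18297 genes fitted (grey), in 4 pairs of libraries. The member curve lies left of the grey curve for OTX-015 in vector cells (median -0.67) and less so in wtBRCA1 cells (median -0.29), and crosses it for the lines under OTX-015.

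Both lines gave a lower value under OTX-015 for 49 members (63.6%, against 30.2% of all genes), and both a higher value for 12. Lower in vector and higher in wtBRCA1 cells were 11, and the reverse held for 4. The differences in the 2 lines, which share no library, correlated across genes (Pearson r 0.44, Spearman rho 0.55) over the 77 members, and 0.42 and 0.44 over all 18297 genes. Without MRPL23 the member values were 0.53 and 0.58. Genes are not independent replicates.

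**Figure D4:**
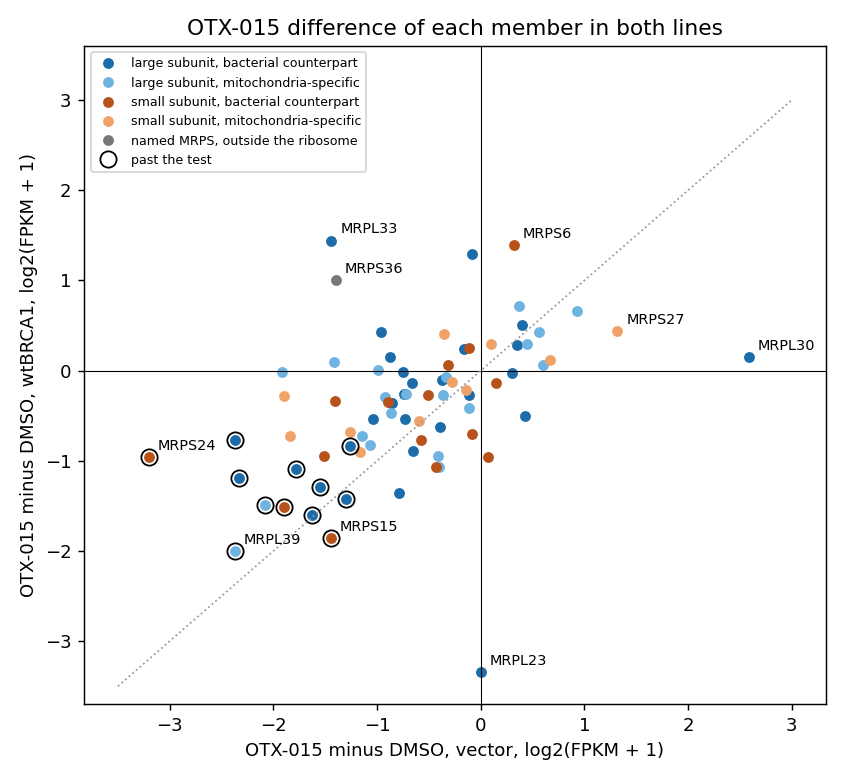
OTX-015 minus DMSO on the log2(FPKM + 1) scale in vector cells (x axis) and wtBRCA1 cells (y axis), 1 point per member, coloured by subunit and origin; the dotted line marks equal differences and black rings the 12 past the test. Below 0 in both lines are 49 members, and MRPL23, MRPL33, MRPL30 and MRPS36 lie farthest from the dotted line.

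The difference in wtBRCA1 cells minus that in vector cells was above 0, toward a smaller fall or a larger gain in wtBRCA1 cells, for 51 of 77 members (66.2%, against 49.2% of all genes). Its median was 0.28 for members and -0.01 for all genes. With 1 library per group this was not tested. It was highest for MRPL33, MRPS36, MRPS24, MRPL44 and MRPS31, at 2.88, 2.40, 2.25, 1.90 and 1.62. It was lowest for MRPL23, MRPL30, MRPS2, MRPL14 and MRPS27, at -3.34, -2.43, -1.04, -0.93 and -0.88.

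MRPL33, a small protein of the large subunit at chr2:27771717-27988087, was at 52.7 FPKM in vector DMSO, 18.8 in vector OTX-015, 19.98 in wtBRCA1 DMSO and 55.9 in wtBRCA1 OTX-015. It was low in 1 library of each line and under the opposite treatment. BRE, to which the files give the same locus range, was at 31.8, 19.3, 48.6 and 6.93 FPKM in that order. MRPS36, which is now known as a subunit of an oxoglutarate dehydrogenase complex and not of the ribosome, was at 8.32, 2.53, 1.80 and 4.60 FPKM. The pseudogene MRPS36P1 was at 13.8, 7.26, 13.3 and 6.20 FPKM, above the gene in every library, so the gene's values are uncertain. MRPL44 was at 8.02 FPKM in vector DMSO and between 1.39 and 1.64 in the other 3.

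The lines were compared over both treatments in the same model. Lower in wtBRCA1 cells under both treatments were 3 of 77 by limma at an adjusted p under 0.05, where 3.42% of all genes were. No member was higher, where 4.92% of all genes were, and at an unadjusted limma p under 0.05 there were 12 lower, where 10.3% of all genes were, and 5 higher, where 13.2% were. The median line effect was -0.03 for members and 0.05 for all genes. The 3 were MRPL52, with an effect of -0.92 ± 0.19 (SE; adjusted p 0.0188), MRPS26, with -1.43 ± 0.32 (SE; adjusted p 0.0234), and MRPL1, with -1.40 ± 0.34 (SE; adjusted p 0.0326). Of the 10 alternative fits that kept both terms, MRPL52 passed in 8, MRPS26 in 7 and MRPL1 in 5. MRPS26 was at 55.8 and 59.9 FPKM with empty vector and, with wtBRCA1, at 18.7 and 23.2 under DMSO and OTX-015. MRPL1 was at 60.1 and 34.4 with empty vector and, with wtBRCA1, at 27.2 and 9.98, so it also ran lower under OTX-015 (adjusted p 0.0915 for treatment, limma). Among protein-coding genes only the count was 7, where 5.30% of all genes in that fit were lower. With any one library left out together with the other factor it was 0, as it was over all 18297 genes. Restored BRCA1 and any other difference between the 2 lines cannot be told apart.

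Both wtBRCA1 values were below both vector values for 20 members, against 19.2% of all genes, and above for 6, against 22.1%. Under DMSO the median member differed by -0.25 between wtBRCA1 and vector cells and the median of all genes by 0.04. There 13 members were 2-fold lower, against 11.7% of all genes, and 2 were 2-fold higher, against 14.8%. Under OTX-015 the median member differed by -0.00, with 7 members 2-fold lower, against 12.6%, and 12 higher, against 15%. The vector DMSO library enters both the OTX-015 pair in vector cells and the line pair under DMSO, and the vector OTX-015 library likewise, so these are not separate observations.

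The promoter letters of the members were read from RefSeq windows of 300 bases on GRCh38.p14, from 250 before to 50 after each start, which matched 68 of the 77 by symbol. Nuclear genes of mitochondrial proteins often carry sites for NRF1, for the ETS factor GABP and for YY1. The letters CCGGAAG, an ETS site, were found on either strand in 28 of 68 member windows (41.2%), against 19.2% of the 10083 fitted genes with a window and 10.7% of all 27305. The letters AAGATGGC, a YY1 site, were in 20 (29.4%), against 5.42% and 3.03%. At least one of these was in 40 member windows (58.8%), against 23.2% of fitted genes, and both in 8. The letters share AAG, so a site of each can overlap. The NRF1 letters GCGCATGC were in 6 (8.82%), against 5.41% and 3.27%. The E-box letters CACGTG were in 6 (8.82%), against 10.2% and 7.43%, and TATAAA in 2 (2.94%), against 5.65% and 11.95%.

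**Figure D5:**
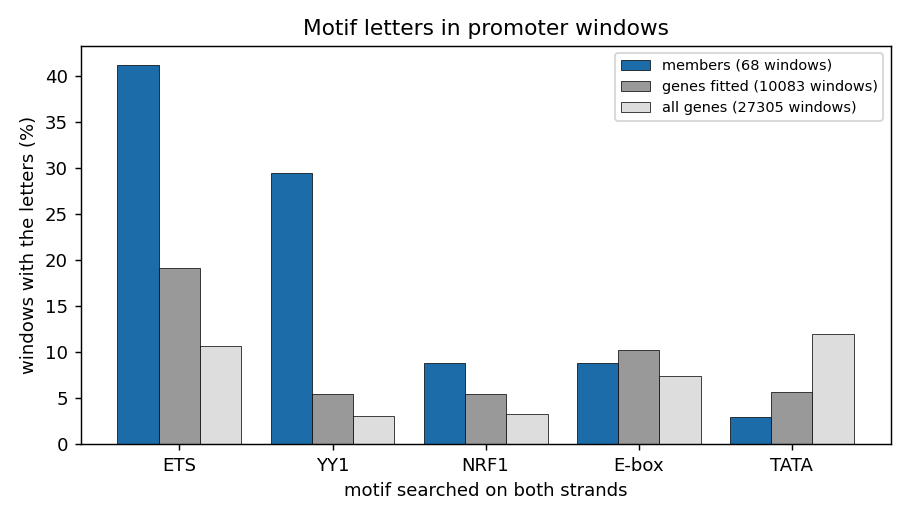
Share of promoter windows (%) that hold each motif on either strand, for 68 members, 10083 fitted genes and 27305 genes with a window. The ETS bar of the members is at 41.2% and the YY1 bar at 29.4%, both above the bars of the fitted genes at 19.2% and 5.42%.

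YY1 letters are shown for 2 members that fell, MRPS24 and MRPL22, for 2 next to the threshold, MRPS18B and MRPS10, and for 2 of the highest effects, MRPS27 and MRPL38. Each is read 5′ to 3′ on the gene strand, with the YY1 letters in capitals.
MRPS24 (chr7:43869481-43869508): cgcttggcccAAGATGGCggcctccgtg
MRPL22 (chr5:154941098-154941122): gggagggcgaAAGATGGCggcggca
MRPS18B (chr6:30617853-30617880): ggcgtacgtcAAGATGGCggcgtctgta
MRPS10 (chr6:42217835-42217862): cgggaccggcAAGATGGCggcgcggaca
MRPS27 (chr5:72320207-72320234): ggtacgctccAAGATGGCtgcctccata
MRPL38 (chr17:75904861-75904888): ggccggagggAAGATGGCggcgccctgg
Of 21 such sites in 20 members, 15 lay after the start on the gene strand, with their first letter from 7 to 36 bases past the start. The letters hold an ATG, and whether it is the translation start in these genes was not tested.

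ETS letters are shown for the 3 members that fell and held them. Of 37 sites in 28 members, 32 had their first letter no farther than 100 bases before the start or after it. MRPL3 is given on the minus strand from 250 before to 30 after the start, with the ETS letters in capitals.
MRPL3 (chr3:131502942-131503221): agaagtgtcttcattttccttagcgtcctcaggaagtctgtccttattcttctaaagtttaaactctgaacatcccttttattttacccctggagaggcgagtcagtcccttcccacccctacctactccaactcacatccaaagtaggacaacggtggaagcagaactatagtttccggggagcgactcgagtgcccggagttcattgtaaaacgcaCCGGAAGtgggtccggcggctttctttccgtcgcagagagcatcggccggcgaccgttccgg
MRPL53, on the minus strand over the same span, held a site on each strand, and the one on the other strand reads CTTCCGG here.
MRPL53 (chr2:74472651-74472930): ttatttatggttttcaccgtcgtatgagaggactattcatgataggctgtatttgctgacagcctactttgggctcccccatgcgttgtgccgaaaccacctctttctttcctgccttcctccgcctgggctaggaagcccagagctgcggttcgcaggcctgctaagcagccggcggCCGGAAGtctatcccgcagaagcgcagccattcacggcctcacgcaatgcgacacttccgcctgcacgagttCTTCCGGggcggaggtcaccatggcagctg
MRPL28 held 1 site, read here on the strand opposite to the gene.
MRPL28 (chr16:370515-370541): cccaccggaaCCGGAAGccgatctgcc
MRPL22, on the plus strand over the same span, is shown with its NRF1 letters in capitals, the only such site among the members that fell.
MRPL22 (chr5:154940823-154941102): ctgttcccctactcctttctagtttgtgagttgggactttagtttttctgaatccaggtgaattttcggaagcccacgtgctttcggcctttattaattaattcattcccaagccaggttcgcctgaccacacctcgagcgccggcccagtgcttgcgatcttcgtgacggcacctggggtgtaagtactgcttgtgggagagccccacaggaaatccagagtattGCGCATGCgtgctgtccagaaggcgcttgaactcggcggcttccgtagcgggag

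The changes of members with and without the letters were set side by side. Of the 10 members that fell and had a window, 3 held ETS letters and 2 held YY1 letters. The median OTX-015 difference was -0.59 in vector cells for the 28 members with ETS letters and -0.73 for the 40 without, and in wtBRCA1 cells -0.28 and -0.35. With YY1 letters it was -0.58 and -0.38 in the 2 lines, and without them -0.69 and -0.28. MRPL39 and MRPS15, the members with the lowest adjusted p, held neither.

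Of the 6 mitoribosomal proteins with other names, 0 fell and 0 rose under OTX-015 by limma at an adjusted p under 0.05, with 1 lower and 0 higher at an unadjusted p under 0.05 (10.2% and 12.6% of all genes). DAP3, a GTP-binding protein of the small subunit, was higher in wtBRCA1 cells, at 207, 218, 354 and 782 FPKM in vector DMSO, vector OTX-015, wtBRCA1 DMSO and wtBRCA1 OTX-015 (limma adjusted p 0.0214). The 2 mitochondrial ribosomal RNAs were higher under OTX-015 in both lines, short of the threshold, and higher in wtBRCA1 cells, past it. MT-RNR1 was at 177, 245.3, 554 and 1083 FPKM and MT-RNR2 at 676, 1003, 1188 and 2006, with limma adjusted p of 0.0997 and 0.0576 for OTX-015 and 0.0017 and 0.0143 for the line. These RNAs were measured after poly(A) selection.

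Genes that act with the ribosome were read from 4 lists. At a limma adjusted p under 0.05, 2.67% of all genes fell and 3.66% rose under OTX-015. By line, 3.42% of all genes were lower in wtBRCA1 cells. Of 27 assembly factors 0 were past the limma threshold for OTX-015, with 1 lower and 3 higher at an unadjusted p under 0.05 (10.2% and 12.6% of all genes). Of 18 translation factors 1 fell, TACO1, an activator of cytochrome oxidase translation, from 11.9 to 3.16 FPKM with empty vector and, with wtBRCA1, from 11.98 to 2.88 (adjusted p 0.0288). Of 17 mitochondrial aminoacyl-tRNA synthetases 1 fell, YARS2, from 23.8 to 8.45 and from 16.0 to 4.07 FPKM (adjusted p 0.0322). Of 18 genes of mitochondrial transcription and RNA processing 2 fell, the poly(A) polymerase MTPAP (adjusted p 0.0326) and the exonuclease PNPT1 (adjusted p 0.0375), and none rose. Lower in wtBRCA1 cells were YBEY, TSFM and C10orf2, with adjusted p of 0.0091, 0.0164 and 0.0212.

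Of 9 regulators known for mitochondrial gene expression 8 passed the filter, and 0 were past the limma threshold for either effect. At an unadjusted limma p under 0.05, 3 were lower under OTX-015 (10.2% of all genes) and 1 was higher in the wtBRCA1 line (13.2% of all genes). Those lower under OTX-015 were ESRRA, MYC and GABPA, and the one higher by line was GABPB1. MYC was at 27.4 and 18.2 FPKM with empty vector and, with wtBRCA1, at 24.8 and 10.8 under DMSO and OTX-015 (adjusted p 0.179). GABPA, the DNA-binding subunit of GABP, was at 10.3 and 4.15 and at 11.04 and 6.72 (adjusted p 0.186). YY1 was at 63.1 and 62.6 and at 58.9 and 56.8 (adjusted p 0.961), and NRF1 at 3.58 and 3.45 and at 2.96 and 4.50 (adjusted p 0.786).

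For comparison, of 77 cytosolic ribosomal proteins 1 fell and 3 rose under OTX-015, where 2.67% and 3.66% of all genes did. Their median differences were -0.26 in vector and -0.01 in wtBRCA1 cells. Of 75 nuclear subunits of the respiratory chain and ATP synthase, 4 fell and none rose, with medians of -0.24 and 0.01. The mitoribosomal medians of -0.67 and -0.29 were lower than both in both lines, which was not tested. By line, 14 of the cytosolic ribosomal proteins were lower in wtBRCA1 cells and 0 higher, against 3 and 0 of the mitochondrial ones. Of all genes, 3.42% were lower and 4.92% higher.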

How the data were processed

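FPKM per gene is the unit the authors deposited. The submitters' processing notes name TopHat2, Cufflinks and hg38. Tool versions, annotation, scaling between libraries and use of strand are not given in the sources used here. Per the labels' protocols, poly(A) RNA was selected and the library kit keeps strand. Each of the 4 deposited files held 60487 rows, and 94.2% of their identifiers were in GENCODE 29. The files were joined by identifier. The 7511 genes of short structural RNA were left out, and rows of the same symbol were summed (68 symbols). Genes with at least 1 FPKM in at least 1 library were kept, and log2(FPKM + 1) was fitted with limma 3.58.1 in R 4.3.3, with terms for line and treatment and an empirical Bayes trend, and p-values were adjusted over all 18297 genes (Benjamini-Hochberg). The threshold was an adjusted p of 0.05. There was 1 residual degree of freedom per gene, so nothing measures the spread between cultures. The fit was also run on simulated data with 200 changed genes and independent noise. No difference between the responses of the lines was built into those data, so that run does not check the calls above. Differences of single pairs of libraries carry no test, and a fold change on this scale understates that of low genes.

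Named are the members past the threshold, those highest and lowest in level and in the difference between responses, those at 0, those with opposite 2-fold differences, the MRPS18 paralogs and the stalk proteins, plus called genes of the other lists and some genes of 3 short lists. MRPS28 and MRPS10 (next to the threshold), MRPS6 and MRPL38 (among the highest effects) and MRPL49 (both OTX-015 values above both DMSO values) were named after their values were seen. Members and lists were chosen with earlier results of these data known. Motif letters were searched in RefSeq promoter windows, and sequences are RefSeq's (GRCh38.p14). Alternatives changed the pseudocount, filter, scaling, variance model, genes fitted and libraries.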

Additional observations from a re-analysis of the deposited data

Results flagged for a closer look

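MRPL33 and MRPS36 stood out because their OTX-015 differences were 2-fold or larger and of opposite sign in the 2 lines. The difference in wtBRCA1 cells minus that in vector cells was 2.88 on the log2(FPKM + 1) scale for MRPL33 and 2.40 for MRPS36. With 1 library per group this was not tested.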

How the results depend on the processing

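The count of members that fell under OTX-015, 12, stood beside 2.67% of all genes. It was 6 with a pseudocount of 5 (0.929% of the genes fitted) and 6 with a filter of 5 FPKM (1.53%). It was 2 with quantile normalization (63 of all genes, 0.344%), 0 without a filter (25 of the 24292 genes above 0 in at least 1 library), 0 without the mean-variance trend (1 of all genes) and 0 with the other factor left out (0 of all genes). MRPL39 and MRPS15 were the 2 that remained with quantile normalization. It was 8 with a pseudocount of 0.1 (1.70% of the genes fitted) and 8 with median-of-ratios rescaling (1.59%). With robust empirical Bayes it was 10 (2.55%) and with protein-coding genes only 14 (4.28%). Leaving out each library in turn, which also drops the other factor, gave 0 to 0 members that fell and 0 to 0 lower in the wtBRCA1 line, with a lone library assumed to vary like the others. Over all 18297 genes these fits also made 0 calls, so they say nothing about the stability of the members. The count lower in the wtBRCA1 line, 3, was 0 without a filter (0.864% of the genes fitted) and 1 with quantile normalization (1.86%). It was 0 without the trend (0.361%), 0 with the other factor left out (0.120%) and 7 with protein-coding genes only (5.30%). The count higher in that line, 0, was 1 with robust empirical Bayes (4.8% of the genes fitted) and 1 with protein-coding genes only (6.83%). That member was MRPL47 in both. With quantile normalization the median OTX-015 difference was -0.79 in vector and -0.40 in wtBRCA1 cells. The cause of these changes was not tested. With 1 library per group there were no replicates to pair. The terms for line and treatment already compare treatments within each line, and the fit with the other factor left out is the one without that.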
